A study of Homo sapiens with 10 samples.

Results

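To determine whether the sphingolipid pathway responds to LXR activation in PC3 cells, 40 genes of sphingolipid synthesis, salvage and breakdown were followed, out of 62656 genes in the deposited table. They were chosen by function and looked up by gene name, which found 39 of them, while CERT1 was found by its gene identifier under its older name COL4A3BP. PC3 is a human prostate cancer line established from a bone metastasis, and a single line at a single dose and time is what these data represent. The control cells received the vehicle DMSO, and the treated cells received 1 µM of GW3965, a synthetic agonist of the liver X receptors (LXRs), for 24 h. Both groups were grown in RPMI-1640 with serum and glutamine, and each holds 5 libraries, numbered 1 to 5 in their titles. Nothing states that the 5 libraries of a group came from separate cultures, so the p-values measure the spread between these libraries, which may be technical.

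Sphingolipids are membrane lipids built on a long-chain base. Their synthesis starts when serine palmitoyltransferase joins serine to palmitoyl-CoA, and it passes through ceramide, which then receives a phosphocholine head group to give sphingomyelin or a sugar to give glycosphingolipids. Breakdown runs back through ceramide to sphingosine, which is either acylated again or phosphorylated to the signalling lipid sphingosine-1-phosphate (S1P) and cleaved by a lyase. LXRs are nuclear receptors activated by oxysterols. They bind DNA with RXR at direct repeats spaced by a few bases, and they are best known for raising cholesterol efflux and fatty acid synthesis genes.

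RNA abundance was measured by RNA-seq with single reads of 50 bases and is given as RPKM, the reads of a gene per kilobase of its length after scaling of the library. The reads behind the RPKM values could be recovered as whole numbers, and the libraries held between 30429384 and 41636379 of them, of which the 7SL RNAs took 12.0 to 23.2%. The epithelial keratins KRT8, KRT18 and KRT19 were abundant, at 36.6, 49.6 and 149 RPKM on average, while CDH1, which encodes E-cadherin, reached only 0.285 RPKM. KLK3, the gene of prostate-specific antigen, was at 0 in all 10 libraries. Among markers of leukocytes, fibroblasts and endothelial cells, only COL3A1, KDR, COL1A1 and PECAM1 exceeded a mean of 0.5 RPKM, and none of the 26 marker genes separated the groups. The treatment itself was visible in all 6 LXR target genes that were examined, which rose with adjusted p from 0.000108 to 0.00714 in limma. Their log2 fold changes were 2.29 for the cholesterol exporter ABCA1, 2.13 for ABCG1, 0.91 for the fatty acid synthase gene FASN, 0.85 for SCD, and 0.74 for both MYLIP and SREBF1.

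No sphingolipid gene changed past the threshold with GW3965. Of the 40 genes, 34 had a mean of at least 0.5 RPKM and were tested on log2(RPKM + 0.1) with limma, and 0 of 34 had a Benjamini-Hochberg adjusted p under 0.05, with values from 0.61 to 1.0. The same test called 32 of 20402 genes, or 0.157% of them. At an unadjusted p under 0.05 the test picked 1 of 34 sphingolipid genes, UGCG, or 2.94%, against 6.99% of all tested genes. This count depended on single libraries and ranged from 0 to 9 when each was left out in turn. It was 9 without DMSO library 1, or 26.5% against 8.87% of all tested genes in that setting, again with 0 genes past the adjusted threshold. The groups did not overlap for 0 of the 34 genes, against 1.84% of all tested genes. Fold changes lay between -0.20 and 0.31 on the log2 scale, 20 above 0 and 14 below, with a median of 0.04 against 0.00 over all tested genes. The median absolute log2 fold change was 0.0894 for the sphingolipid genes and 0.0892 for all tested genes.

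The 95% interval of each gene describes the fold changes compatible with the spread between these libraries, under the deposited scaling. For 33 of 34 genes the whole 95% interval of the fold change lay within 1.5-fold in either direction, which held for 75.1% of all tested genes. The exception was SPTLC3, whose interval ran from 0.928-fold to 1.65-fold. The spread between libraries of 1 group was smaller for the sphingolipid genes, with a median SD of 0.130 on the log2 scale, than over all tested genes, with 0.181. In bulk RNA a change in the RNA per cell and a change in the share of cells that express a gene cannot be told apart.

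**Figure D1:**
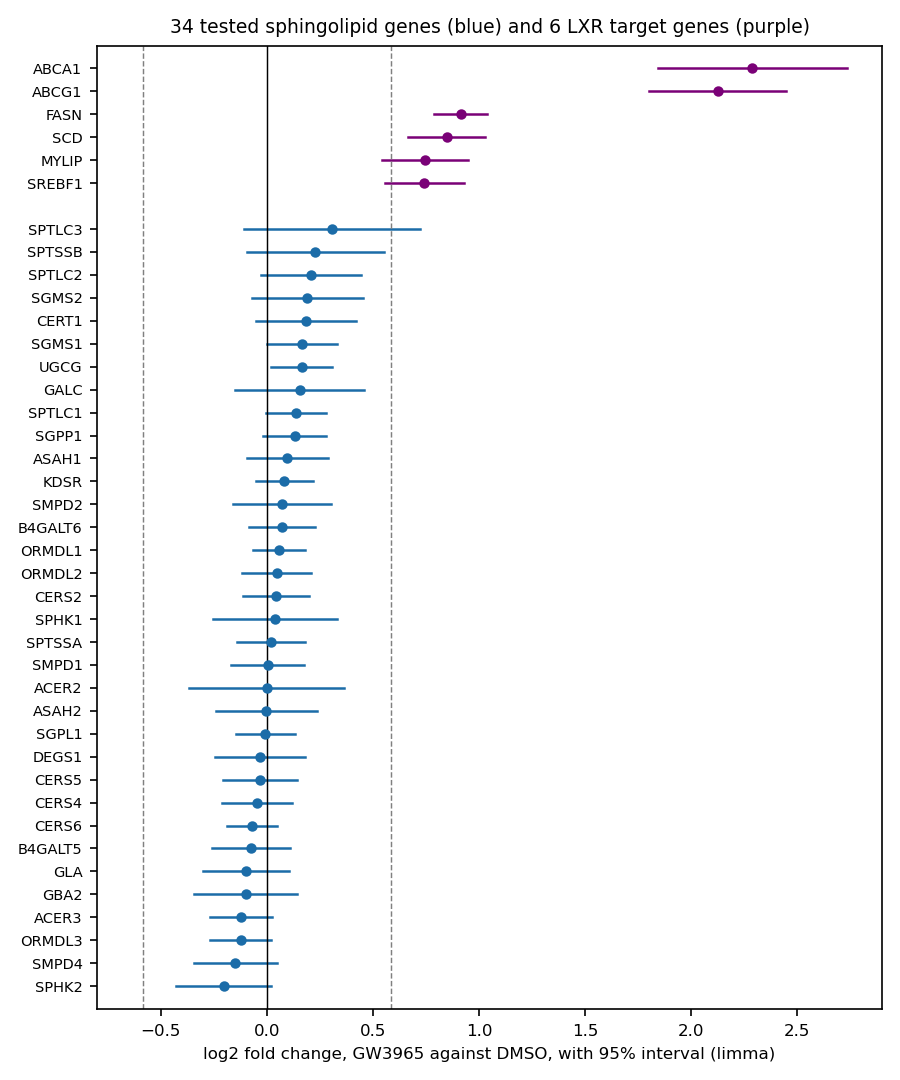
Log2 fold change of GW3965 against DMSO (x axis) with its 95% interval from limma for the 34 tested sphingolipid genes (blue) and 6 LXR target genes (purple), 5 libraries per group. Dashed lines mark a 1.5-fold change in either direction, which only the interval of SPTLC3 crosses among the blue genes, while all purple points lie at 0.74 or above.

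The levels differed far more between genes than between groups. GBA2, the nonlysosomal glucosylceramidase, was the most abundant at 41.6 RPKM over all libraries, followed by the ceramide synthase gene CERS2 at 23.1, the desaturase gene DEGS1 at 19.1, the S1P phosphatase gene SGPP1 at 17.8 and the lactosylceramide synthase gene B4GALT5 at 14.7. The lowest of the tested genes was the Golgi ceramidase gene ACER2 at 0.626 RPKM. Since RPKM is a value per length, these levels can be set side by side across genes only roughly. For 25981 genes of the table the length behind the RPKM values equalled all exon bases of the gene in GENCODE 29. Such a length can hold bases that the expressed transcripts lack. ASAH1 had 9844 reads over the DMSO libraries and ASAH2 had 5289, yet ASAH1 had the lower mean RPKM, at 3.61 against 4.11. Reads that fit more than 1 gene are a further limit.

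**Figure D2:**
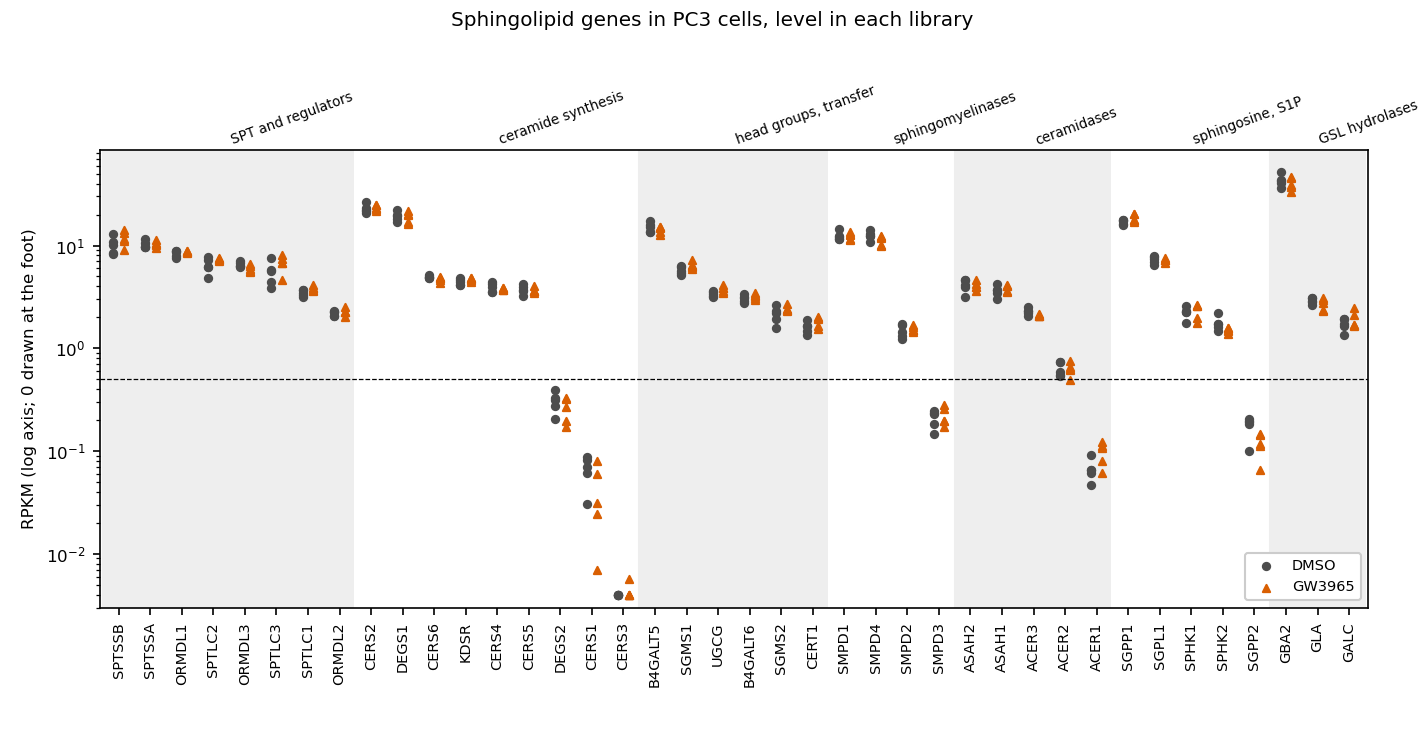
RPKM of the 40 sphingolipid genes in each library (y axis, log scale), grouped by role and ordered by mean within a role, with DMSO libraries as grey circles and GW3965 libraries as orange triangles. The dashed line is the limit of 0.5 RPKM, under which 6 genes lie, and the colours overlap for each of the 34 genes above it.

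Serine palmitoyltransferase is the entry enzyme of the pathway. It pairs the subunit of SPTLC1 with that of SPTLC2 or SPTLC3, carries a small activating subunit from SPTSSA or SPTSSB, and is held back by the ORMDL proteins when ceramide is high. All 8 genes of this group were tested, and 7 had a log2 fold change above 0, from 0.02 for SPTSSA to 0.31 for SPTLC3, without passing the test. SPTLC3 (chr20:13008979-13169103, plus strand, in GENCODE 29 on GRCh38, as all gene positions here) measured 7.62, 4.41, 3.87, 5.81 and 5.71 RPKM in DMSO libraries 1 to 5 and 8.13, 7.39, 6.80, 6.70 and 4.64 in GW3965 libraries 1 to 5. DMSO library 1 was as high as most treated libraries and GW3965 library 5 lay among the controls, so the groups overlapped widely. The log2 fold change was 0.31 (SE 0.188, limma adjusted p = 0.82).

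SPTSSB (chr3:161344792-161372880, minus strand) showed the same arrangement. Its RPKM was 13.1, 8.28, 8.46, 10.7 and 10.1 with DMSO and 13.3, 14.3, 11, 11.6 and 9.08 with GW3965. Again DMSO library 1 stood with the high treated libraries and GW3965 library 5 with the controls, and the log2 fold change was 0.23 (SE 0.146, limma adjusted p = 0.834). Its paralog SPTSSA (chr14:34432789-34462356, minus strand) measured 10.6, 9.61, 9.63, 11.7 and 9.59 with DMSO and 9.46, 10.3, 10.0, 10.6 and 11.4 with GW3965. It was thus steadier, with means of 10.2 ± 0.912 and 10.4 ± 0.724 (SD, n = 5) and the highest value in a control.

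SPTLC2 (chr14:77505997-77616773, minus strand) had the third highest fold change. Its RPKM was 7.16, 6.15, 4.84, 7.76 and 6.17 with DMSO and 7.44, 7.38, 7.23, 7.56 and 7.08 with GW3965. The treated libraries lay close together inside the range of the controls, which was set by library 3 at the low end and library 4 at the high end. The log2 fold change was 0.21 (SE 0.107, limma adjusted p = 0.77). SPTLC1, the subunit common to all forms of the enzyme, averaged 3.47 ± 0.235 RPKM with DMSO and 3.83 ± 0.192 with GW3965 (SD, n = 5). Of its treated libraries, 3 of 5 lay above the highest control, with a log2 fold change of 0.14 (limma adjusted p = 0.726).

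Among the ORMDL genes, whose products restrain serine palmitoyltransferase, ORMDL3 (chr17:39921041-39927601, minus strand) had the lowest fold change. It measured 6.36, 6.16, 6.75, 7.10 and 6.32 RPKM with DMSO and 5.61, 6.31, 5.96, 6.55 and 5.55 with GW3965. GW3965 libraries 1, 3 and 5 lay under the lowest control and the other two did not. The log2 fold change was -0.12 (SE 0.066, limma adjusted p = 0.778). Its sign turned, to 0.01, when each library was scaled by the summed RPKM of its tested genes. ORMDL1 measured 8.85, 8.81, 8.68, 7.93 and 7.58 RPKM with DMSO and 8.78, 8.68, 8.54, 8.73 and 8.76 with GW3965, so that all treated libraries fell inside the range of the controls. ORMDL2 was lower, at 2.32, 2.04, 2.27, 2.25 and 2.04 with DMSO and 2.02, 2.25, 2.26, 2.25 and 2.53 with GW3965, where library 1 was the lowest and library 5 the highest of all. Of the exon bases of ORMDL2, 32.7% lie under DNAJC14 on the opposite strand, and the strand setting of the authors' counting is not given in the sources used here.

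**Figure D3:**
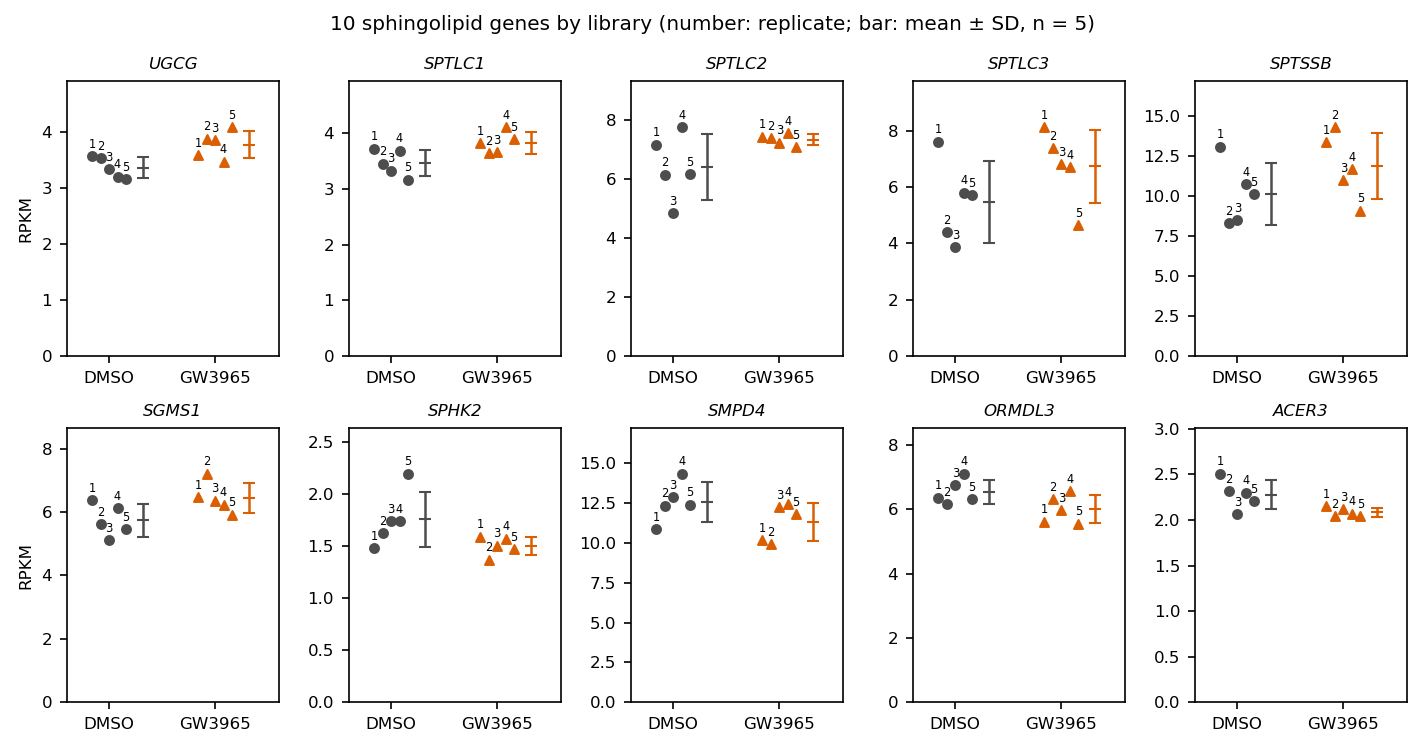
RPKM (y axis, from 0) of 10 sphingolipid genes in the DMSO (grey circles) and GW3965 (orange triangles) libraries, each point numbered by its replicate, with the mean ± SD of 5 libraries beside them. UGCG has 4 of 5 treated libraries above the highest control, and the points of the groups overlap for all 10 genes.

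Levels of SPTLC3 and SPTSSB moved together from library to library. Over the 10 libraries the log2 values had Pearson's r = 0.953 and Spearman's rho = 0.939, and r was 0.971 within DMSO and 0.909 within GW3965. By permutation, p was 5e-05 for r and 0.00023 for rho. After adjustment over the 561 pairs of tested sphingolipid genes these became 0.0280 and 0.0729, so that r passed and rho did not. The same held for 1 other pair, DEGS1 with GLA, with r = 0.913 and rho = 0.903 (permutation p = 0.00013 and 0.0009, adjusted 0.0365 and 0.108), and r = 0.869 without the 2 libraries farthest from the median of DEGS1. Without the 2 libraries farthest from the median of SPTLC3, its r with SPTSSB was 0.928. SPTLC3 with SPTSSA had r = 0.02 and rho = -0.04 over the same libraries (permutation p = 0.949 and 0.92). Within the groups this pair differed in sign, with r = 0.551 over the 5 DMSO libraries and r = -0.921 over the 5 GW3965 libraries, a difference that was not tested. The pair of SPTLC3 and SPTSSB was picked out after the values had been seen, and other genes followed SPTLC3 as closely. SPTSSB was 16th of 20401 genes in its correlation with SPTLC3, and SPTLC3 was 12th for SPTSSB. GLA was only 435th of 20401 in its correlation with DEGS1. The first principal component of all tested genes, the main direction in which the libraries differed, had r = 0.962 with DEGS1 and 0.810 with GLA. Its r was -0.433 with SPTLC3 and -0.482 with SPTSSB.

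**Figure D4:**
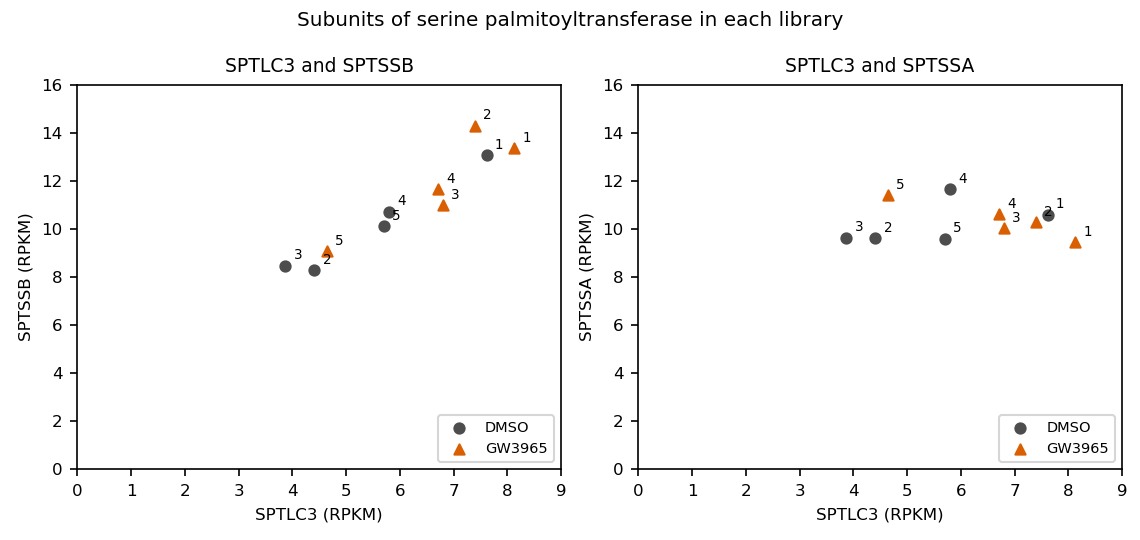
RPKM of SPTLC3 (x axis) against SPTSSB (left, y axis) and SPTSSA (right, y axis) in 5 DMSO libraries (grey circles) and 5 GW3965 libraries (orange triangles), numbered by replicate. SPTSSB rises with SPTLC3 within both groups (r = 0.953 on log2 values over 10 libraries), while SPTSSA stays between 9.46 and 11.7 RPKM at every level of SPTLC3.

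The next steps make ceramide. KDSR reduces ketosphinganine, the 6 ceramide synthases each attach acyl chains of a preferred length, and the desaturases introduce the double bond that turns dihydroceramide into ceramide. Of these 9 genes 6 were tested, and their log2 fold changes lay between -0.07 for CERS6 and 0.08 for KDSR. CERS2 (chr1:150960583-150975004, minus strand), which makes ceramides with very long chains, measured 20.5, 22, 23.1, 26.3 and 21.8 RPKM with DMSO and 22.5, 21.9, 24.8, 24.7 and 23.2 with GW3965. All treated values fell between the lowest and the highest control, with a log2 fold change of 0.04 (SE 0.071, limma adjusted p = 0.957). CERS2 provided 64.2% ± 1.84 of the summed RPKM of the 6 ceramide synthases with DMSO and 65.8% ± 1.17 with GW3965 (SD, n = 5). Of the exon bases of CERS2, 20.4% lie under SETDB1 on the opposite strand.

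The other ceramide synthases were much lower. CERS6 measured 4.89, 5.11, 4.84, 4.98 and 4.88 RPKM with DMSO and 4.57, 4.35, 4.78, 4.93 and 4.88 with GW3965. CERS4 measured 4.46, 3.50, 3.95, 4.20 and 3.51 with DMSO and 3.88, 3.81, 3.86, 3.71 and 3.66 with GW3965. CERS5 measured 3.63, 3.72, 3.94, 4.23 and 3.20 with DMSO and 4.03, 3.57, 3.59, 3.6 and 3.44 with GW3965. GW3965 libraries 1, 2 and 3 lay under all controls for CERS6, and all treated libraries lay inside the range of the controls for CERS4 and CERS5. Of the exon bases of CERS6, 41.4% lie under the antisense gene CERS6-AS1. CERS3, whose enzyme makes the ultra-long ceramides of skin, had 1 read in all 10 libraries together. CERS1, the form known from brain and muscle, had 45 reads over the DMSO libraries and 28 over the GW3965 libraries. Since 67.1% of its exon bases are also exons of GDF1 on the same strand, its level is uncertain. Reads on the shared bases may have been left out or assigned to either gene.

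The desaturase signal came almost entirely from DEGS1 (chr1:224175756-224193441, plus strand), with 98.4% ± 0.453 of the summed RPKM of DEGS1 and DEGS2 with DMSO and 98.6% ± 0.531 with GW3965 (SD, n = 5). DEGS1 averaged 19.3 ± 2.00 and 18.9 ± 2.33 RPKM (SD, n = 5).

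Ceramide then receives its head group, and here lay the only gene with an unadjusted p under 0.05. UGCG (chr9:111896766-111935369, plus strand) encodes glucosylceramide synthase, the first step toward most glycosphingolipids. It measured 3.57, 3.53, 3.34, 3.20 and 3.16 RPKM with DMSO and 3.59, 3.88, 3.85, 3.48 and 4.09 with GW3965. Only GW3965 library 4 lay inside the range of the controls, and library 1 lay just above it. The means were 3.36 ± 0.188 and 3.78 ± 0.244 (SD, n = 5). On the log2 scale it was higher by 0.16 (SE 0.065, 95% interval 0.02 to 0.31), with an unadjusted p of 0.0284 and an adjusted p of 0.61 in limma.

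The sphingomyelin synthase genes came next in order. SGMS1 (chr10:50305586-50625163, minus strand), the Golgi form, measured 6.37, 5.62, 5.11, 6.12 and 5.46 RPKM with DMSO and 6.47, 7.21, 6.35, 6.23 and 5.92 with GW3965. GW3965 libraries 1 and 2 lay above all controls and the others lay within their range. Its log2 fold change was 0.16 (SE 0.075, limma unadjusted p = 0.0506, adjusted p = 0.713). SGMS2, which also acts at the plasma membrane, averaged 2.14 ± 0.396 with DMSO and 2.42 ± 0.155 with GW3965 (SD, n = 5, limma adjusted p = 0.824). The split between both forms differed by less than its spread, with SGMS1 at 72.8% ± 4.99 and 72.6% ± 2.48 of their sum (SD, n = 5).

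B4GALT5 (chr20:49632945-49713878, minus strand) and B4GALT6 encode the lactosylceramide synthases. B4GALT5, the most abundant gene of the head group steps, measured 15.3, 13.5, 15.9, 17.3 and 13.6 RPKM with DMSO and 12.7, 13.6, 15.3, 15.2 and 14.8 with GW3965. The ranges overlapped in all but GW3965 library 1, which was the lowest of all. Its log2 fold change was -0.07, and that of B4GALT6 was 0.07. CERT1, whose protein carries ceramide from the endoplasmic reticulum to the Golgi for sphingomyelin synthesis, averaged 1.59 ± 0.203 and 1.82 ± 0.202 RPKM (SD, n = 5, log2 fold change 0.18, limma adjusted p = 0.808).

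**Figure D5:**
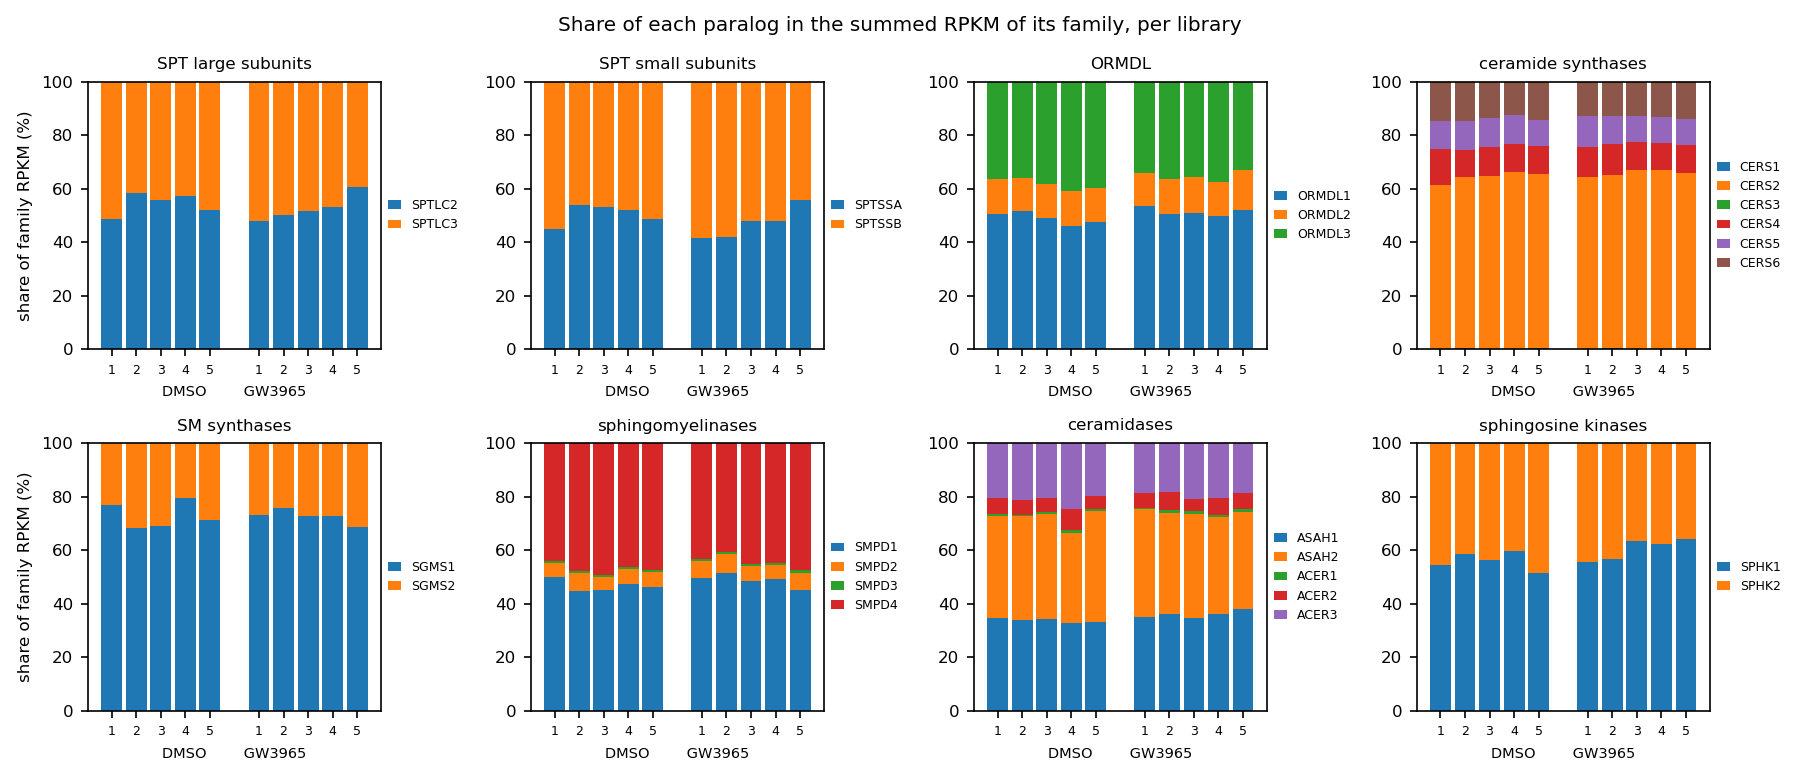
Share of each paralog in the summed RPKM of its family (y axis, percent) in DMSO libraries 1 to 5 (left bars) and GW3965 libraries 1 to 5 (right bars) for 8 families. The shares of the groups overlap for every gene, with CERS2 at 61.2 to 67.0% of the ceramide synthases in every library.

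Sphingomyelinases return sphingomyelin to ceramide. SMPD1 (chr11:6390431-6394998, plus strand) encodes the acid enzyme of lysosomes, and it measured 12.3, 11.5, 11.7, 14.5 and 12.1 RPKM with DMSO and 11.7, 12.5, 13.1, 13.7 and 11.3 with GW3965. DMSO library 4 was the highest of all, GW3965 libraries 2, 3 and 4 lay between it and the other controls, and GW3965 library 5 was the lowest, so that the groups overlapped and the log2 fold change was 0.00 (SE 0.078). SMPD4 (chr2:130151392-130182750, minus strand), a neutral enzyme of the endoplasmic reticulum and nuclear envelope, measured 10.8, 12.3, 12.8, 14.3 and 12.4 with DMSO and 10.2, 9.90, 12.2, 12.4 and 11.8 with GW3965. GW3965 libraries 1 and 2 lay below all controls and the other treated libraries among them.

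The log2 fold change of SMPD4 was -0.15 (SE 0.089, limma adjusted p = 0.817). Of the 50-base windows of its exons, 16.6% occur also in SMPD4P2 or AC073869.1, so some of its reads may have been left out or assigned to these copies. SMPD2 was low, at 1.51 RPKM over all libraries, and SMPD3, the enzyme known for its part in exosome release, lay under the limit of 0.5 RPKM with 0.207 ± 0.0412 and 0.220 ± 0.0445 (SD, n = 5, exact permutation p = 0.635).

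Ceramidases release sphingosine. The genes of the acid enzyme, ASAH1, and of the neutral enzyme, ASAH2 (chr10:50182778-50248610, minus strand), together made up most of the ceramidase RPKM. ASAH1 averaged 3.61 ± 0.425 with DMSO and 3.85 ± 0.265 with GW3965 (SD, n = 5). ASAH2 measured 4.62, 4.17, 3.94, 3.14 and 4.67 with DMSO and 4.6, 4.20, 3.95, 3.64 and 3.96 with GW3965. The treated values all fell inside the range of the controls, with a log2 fold change of 0.00 (SE 0.108). Of the 50-base windows of ASAH2, 52.6% occur elsewhere, mainly in its copy ASAH2B, so its level is uncertain.

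Of the alkaline ceramidases, ACER3 averaged 2.28 ± 0.162 and 2.08 ± 0.0475 RPKM (SD, n = 5), with 2 of 5 treated libraries under the lowest control and a log2 fold change of -0.12 (limma adjusted p = 0.785). ACER2 was equal in both groups, at 0.626 RPKM in each. ACER1, known from skin, had between 2 and 7 reads in a library, 17 over the DMSO and 25 over the GW3965 libraries (exact permutation p = 0.0635).

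Sphingosine kinases turn sphingosine into S1P. SPHK2 (chr19:48619291-48630717, plus strand), the form found largely in the nucleus and mitochondria, had the lowest fold change of all tested sphingolipid genes. It measured 1.48, 1.63, 1.74, 1.74 and 2.19 RPKM with DMSO and 1.59, 1.37, 1.5, 1.57 and 1.47 with GW3965. DMSO library 5 was well above the rest, while DMSO library 1 lay among the treated libraries. This gave a log2 fold change of -0.20 (SE 0.102, limma unadjusted p = 0.0722, adjusted p = 0.755). Of the exon bases of SPHK2, 11.3% lie under AC022154.1 on the opposite strand. DBP and RPL18 also overlap its exons on that strand.

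SPHK1 (chr17:76376584-76387860, plus strand), the cytosolic form, measured 1.77, 2.28, 2.24, 2.58 and 2.33 with DMSO and 1.97, 1.78, 2.60, 2.59 and 2.64 with GW3965. In both groups some libraries were low and others high, which left a log2 fold change of 0.04 (SE 0.132). SPHK1 made up 56.1% ± 3.25 of the kinase RPKM with DMSO and 60.4% ± 4.13 with GW3965 (SD, n = 5), and the shares of the groups overlapped.

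S1P is returned to sphingosine by the phosphatases or removed for good by the lyase. SGPP1 (chr14:63684214-63728039, minus strand) measured 16.1, 17.4, 17.6, 17.8 and 15.9 RPKM with DMSO and 17.1, 17.6, 17.8, 20.3 and 20.3 with GW3965. GW3965 libraries 4 and 5 stood above all others, and the rest overlapped, with a log2 fold change of 0.13 (SE 0.067, limma adjusted p = 0.769). SGPP2 was under the limit. It measured 0.198, 0.185, 0.192, 0.10 and 0.204 RPKM with DMSO and 0.118, 0.0653, 0.143, 0.147 and 0.111 with GW3965, so that all controls but library 4 lay above the treated libraries. There were 154 reads over the DMSO libraries and 104 over the GW3965 libraries, and means of 0.176 ± 0.0429 and 0.117 ± 0.0328 RPKM (SD, n = 5). The exact permutation test of this single gene gave p = 0.0476, where 0.00794 is the smallest value that 5 libraries against 5 allow. With Benjamini-Hochberg adjustment over the genes under the limit this permutation p became 0.19, and none of those genes had a lower one. For SGPP2, limma without the limit on RPKM gave an adjusted p of 0.913. The lyase gene SGPL1 averaged 7.24 ± 0.542 and 7.19 ± 0.311 RPKM (SD, n = 5).

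Glycosphingolipids are taken apart by GBA2, by the alpha-galactosidase of GLA and by the galactosylceramidase of GALC. GBA2 (chr9:35736866-35749228, minus strand) measured 52.2, 36.6, 40.6, 43.7 and 42.2 RPKM with DMSO and 46.2, 45.1, 38.7, 37.4 and 33.4 with GW3965. DMSO library 1 was the highest and GW3965 library 5 the lowest, with all other libraries of both groups in between. Its log2 fold change was -0.10 (SE 0.11, limma adjusted p = 0.93). GLA averaged 2.88 ± 0.182 and 2.70 ± 0.349, and GALC averaged 1.71 ± 0.25 and 1.93 ± 0.37 RPKM (SD, n = 5).

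The remaining gene under the limit of 0.5 RPKM was DEGS2, with 209 reads over the DMSO libraries and 182 over the GW3965 libraries (exact permutation p = 0.31). For CERS1 the exact permutation p was 0.135.

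The wider pathway was examined through 52 further genes, such as those of complex glycosphingolipid synthesis, lysosomal breakdown, lipid transfer and S1P receptors. Of these 38 were tested, and again 0 passed the threshold, with 18 fold changes above 0 and 20 below. At an unadjusted p under 0.05 there were 2 of 38, or 5.26%, against the 6.99% of all tested genes. ST3GAL2, a sialyltransferase gene of ganglioside synthesis, was the only one of the 38 whose groups did not overlap, which held for 1.84% of all tested genes. It measured 4.90, 5.06, 5.36, 5.44 and 5.14 RPKM with DMSO and 4.37, 4.51, 4.82, 4.61 and 4.31 with GW3965, so that every treated library was lower. Its log2 fold change was -0.19 (SE 0.055, limma unadjusted p = 0.0052, adjusted p = 0.359). SMPDL3A, a gene of the acid sphingomyelinase family, had a log2 fold change of 0.21 (limma unadjusted p = 0.0246, adjusted p = 0.595). The ends of the list were FA2H, which hydroxylates fatty acids of ceramides, at 0.38 (limma adjusted p = 0.818) and the S1P receptor gene S1PR3 at -0.24 (limma adjusted p = 0.73).

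The promoters of these genes were read for the element through which LXRs act, and a few windows are shown to set the best matches beside that of a responding gene. RefSeq promoter windows of GRCh38.p14, from 250 bases before to 50 after a gene start, were on hand for 33 of the 40 sphingolipid genes, in 52 windows, and for 4 of the 6 LXR target genes. The element is a direct repeat with a spacer of 4 bases, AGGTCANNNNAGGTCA, and it was searched on both strands. With at most 2 mismatches it was found in 0 of 52 windows of sphingolipid genes and in 2.34% of all 35116 promoter windows. With at most 3 mismatches it was found in 6 of 52, or 11.5%, against 18.6% of all windows. In the lines that follow, capitals mark bases equal to the element, and each window is written in the direction of the element. The ABCA1 window has 2 mismatches and the others have 3.
ABCA1, chr9:104928209-104928224, antisense to the gene: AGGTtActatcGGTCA
CERT1, chr5:75511634-75511649, along the gene: AGGaCAggggAGGggA
DEGS1, chr1:224183062-224183077, along the gene: gaGTCAccgaAGcTCA
ORMDL3, chr17:39927614-39927629, antisense to the gene: cGGTCcccgtAcGTCA
SGPL1, chr10:70815699-70815714, antisense to the gene: ttGTCAcatttGGTCA

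ABCA1, with the closest match among these, had the log2 fold change of 2.29 given above. The 4 sphingolipid genes shown had values from -0.12 to 0.18. ORMDL1 and CERS1 also had a window with 3 mismatches, which is not shown. The log2 fold change of ORMDL1 was 0.06, and CERS1 was under the limit of 0.5 RPKM. The windows of the other 3 responding genes matched less well than those shown, with 4 mismatches in MYLIP and 5 in both SCD and SREBF1. The number of mismatches thus did not order the genes by their fold change. A match of letters is a description of the window and no evidence of binding, and these windows leave out distant enhancers.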

How the data were processed

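RNA-seq of PC3 cells, 5 DMSO and 5 GW3965 libraries grouped by their titles, was used as deposited. Per the labels, stranded libraries were made from total RNA depleted of ribosomal RNA, although the records name polyA RNA. The submitters' processing notes name hg38, bcl2fastq 2.20.0.422, cutadapt, HISAT2 2.1.0, HTSeq 0.11.2 and DESeq2 1.22.2, while the methods of the study name the mouse genome. All identifiers of the table are human. The authors deposited RPKM values, 1 column per library, and 15119 of 62656 genes were 0 throughout. Gene positions are those of GENCODE 29 (GRCh38).

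Whole reads were recovered from the steps of the RPKM values (99.99% of values above 0, relative tolerance 1e-06). The library factors equalled median-of-ratios size factors up to 1 constant, so the deposited values were already scaled. The printed 95% intervals are those of limma and rest on the spread between libraries.

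The values were tested as log2(RPKM + 0.1) with a minimum mean of 0.5 RPKM per gene by limma 3.58.1 in R 4.3.3 (trended eBayes, two-sided, Benjamini-Hochberg over 20402 genes, threshold 0.05). This scale understates fold changes of low genes. Genes under that limit were compared by an exact two-sided permutation test in Python 3.11.15 with numpy 2.4.6. Paralog shares were not tested. Correlations used 100000 permutations. The procedure was checked on simulated data with 20402 genes: 35 of 82 genes changed by 0.5 on the log2 scale were recovered, 42 of 56 changed by 1 and 58 of 62 changed by 2, and 4 of 139 called genes were unchanged. Reads that could fit several genes were judged from 50-base windows of GENCODE transcripts.

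The sphingolipid genes, the further lists and the tests were chosen with earlier results of these data known. Given with values in each library were genes with an unadjusted p under 0.05, the 3 highest and 3 lowest fold changes and the most abundant gene of each role, with the paralogs of the subunit, ORMDL, ceramide synthase, kinase and phosphatase families. SGMS1 was added after its values were seen. Alternatives were a pseudocount of 1 or 0.01, a minimum mean of 1 RPKM or none at all, and quantile or total scaling. Total scaling divided each library by the summed RPKM of its tested genes. Others were replicate numbers as blocks, an untrended limma fit, weights per library and the first principal component as covariate. The last were voom on recovered reads and the loss of each library.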

Additional observations from a re-analysis of the deposited data

Results flagged for a closer look

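The libraries of each group were checked, gene by gene, for a single library far from the other 4, over 68 groups of 5 (34 tested sphingolipid genes in 2 conditions). For 2 of 68 groups the gap to the nearest library, divided by the whole range, exceeded the 95% critical value of Dixon's test (0.71), where chance alone would give 3.4. SGMS2 was highest in GW3965 library 5, at 2.70 RPKM against 2.33 to 2.40 in the other 4 libraries, with a ratio of 0.788. SMPD1 was highest in DMSO library 4, at 14.5 RPKM against 11.5 to 12.3 in the others, with a ratio of 0.718. DMSO library 4 also held the highest value of all 10 libraries for 12 of the 34 tested sphingolipid genes and the lowest for 6.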

How the results depend on the processing

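The number of sphingolipid genes past the threshold was 0 in all 21 alternatives, and so was that of the 52 further pathway genes. The number at an unadjusted p under 0.05, which was 1, moved to 2 with no filter, 2 at a mean of at least 1 RPKM, 3 with quantile normalization, 0 with total scaling, 2 with voom, 5 with library weights and 6 with the first principal component as covariate, against 5.39%, 7.29%, 8.59%, 4.71%, 7.24%, 10.3% and 12.7% of all tested genes. Leaving out 1 library gave 0 to 9. The 9 arose without DMSO library 1 (26.5%, against 8.87% of all tested genes, lowest limma adjusted p 0.487) and were SPTLC1, SPTLC2, SPTLC3, SPTSSB, SGMS1, UGCG and CERT1 above 0 and SPHK2 and SMPD4 below. The number was 0 without DMSO library 5 or GW3965 library 2 or 3. UGCG lost its unadjusted p under 0.05 without DMSO library 4 or 5 or GW3965 library 2, 3 or 5.

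Total scaling moved the median log2 fold change to 0.175, while it moved that of all genes to 0.136, and leaving out 1 library gave 0.0231 to 0.0562. Signs turned for some genes, none of which passed the test. Under total scaling these were ORMDL3 (0.0125), CERS4 (0.0897), CERS5 (0.102), CERS6 (0.0646), DEGS1 (0.105), B4GALT5 (0.0641), ASAH2 (0.132), ACER2 (0.124), ACER3 (0.0115), SGPL1 (0.129), GBA2 (0.0377) and GLA (0.0349). Under quantile normalization they were SPTSSA (-0.00157), SMPD1 (-0.0163) and ACER2 (0.0447), under library weights DEGS1 (0.026), B4GALT5 (0.00672), ACER2 (0.00557) and SGPL1 (0.00821), and with the component SMPD1 (-0.0069), ASAH2 (0.0286), ACER2 (0.00426) and SPHK1 (-0.000779). Leaving out 1 library turned ACER2 (-0.0595 to 0.0743), ASAH2 (-0.0947 to 0.0449), CERS4 (-0.0834 to 0.00139), CERS5 (-0.0866 to 0.0111), DEGS1 (-0.0800 to 0.0252), SGPL1 (-0.0445 to 0.0207), SMPD1 (-0.0305 to 0.0618), SPHK1 (-0.0387 to 0.126) and SPTSSA (-0.0135 to 0.07). The cause was not tested.

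Same-numbered libraries shared little of their deviation from the group means, with correlations of 0.149, -0.0488, 0.0386, 0.16 and -0.138 for numbers 1 to 5. The DMSO library closest in deviation was the same-numbered one for GW3965 libraries 1 and 4, and another one for libraries 2, 3 and 5. With 5 libraries per group these values cannot decide whether the numbers pair the libraries. With the replicate number as a block, 2 sphingolipid genes, UGCG and SMPD4, had an unadjusted p under 0.05 and 0 were called. Over all tested genes 16 were called in place of 32, and the limma adjusted p became 0.0643 for SREBF1 and 0.0724 for MYLIP. With total scaling that of MYLIP was 0.116. The depth left ACER1, CERS1 and CERS3 with at most 14 reads in a library, so that a change of these genes could not be judged.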
